A study of Mus musculus with 28 samples.

Results

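The lymphomas described here were the extremes of a range of responses to Adriamycin (ADR, doxorubicin), a drug that traps topoisomerase II on DNA and breaks it. For each of 14 Emu-myc mouse lymphomas, the ADR minus untreated change was averaged over 5 proliferation genes, Mki67, Kif11, Aurkb, Ccnb2 and Ccna2, each read from its brightest probe set. The 5 lymphomas with the largest mean fall (2949, 5766, 3769, 9583 and 1570, the strong-fall lymphomas) were set against the 5 with the smallest mean fall (1467, 5560, 5043, 7050 and 9584, the weak-fall lymphomas). The other 4 lymphomas lay between them. Because the groups were chosen by a measured change, every ADR minus untreated value below is a description and carries no test. Only untreated levels were tested, and the untreated array is 1 side of the change that chose the groups.

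All lymphomas arose in C57BL/6 mice carrying the Emu-myc transgene, in which an immunoglobulin enhancer drives Myc in the B-cell lineage. The primary cells came from enlarged lymph nodes, were infected with a retrovirus (MSCVpuro) carrying Bcl2, which blocks apoptosis, and were selected with puromycin, so that controls and treated cultures share both genes. The cultures had a feeder layer of NIH 3T3 fibroblasts, a mouse line that was irradiated so as not to divide, and the labels name no step that removed feeder cells before RNA was taken. One culture per lymphoma was left untreated and 1 received 0.05 µg/ml ADR for 5 days, which gave 28 arrays. The age of the mice is not stated in the labels. Each lymphoma is 1 tumour, so p-values measure the spread between tumours, and a group has 5 of them.

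Cells that leave the cell cycle stop making the messages of mitosis and DNA replication. In arrested cells the RB family and the DREAM complex silence these genes, the former mainly through E2F sites at replication genes and the latter through a promoter element called the cell cycle genes homology region (CHR) at mitotic genes. DNA damage feeds into this arrest through p53 and its target Cdkn1a, which encodes the CDK inhibitor p21. In bulk RNA, fewer cycling cells and less of a message per cell cannot be told apart.

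Expression was measured on Affymetrix arrays as log2 values for 45101 probe sets, reduced to 18193 genes. The untreated array of a lymphoma correlated best with its own ADR array in 12 of 14 cases, and the ADR array with its own untreated array in 12 of 14. The exceptions within the groups were the untreated array of 2949 (r = 0.49 with the ADR array of 5766, 0.45 with its own) and the ADR arrays of 5766 (0.66 with untreated 6054, 0.58 with its own) and 1467 (0.53 with untreated 1570, 0.35 with its own). The ADR array of 1570 stood apart in RNA quality, with a Gapdh 3' minus 5' signal of 0.92, against at most 0.10 in the ADR arrays of the other 9. In 9584 the Y-linked gene Eif2s3y was at 4.74 in the untreated and 8.61 in the ADR array, whereas the Y-linked Kdm5d was at 7.17 and 7.20. Each of its arrays correlated best with the other (0.36), and whether both are of the same tumour was not settled by these values, so that its change, the smallest of all, carries that doubt. Lymphomas re-analysed from an earlier series made up 4 of 5 strong-fall and 3 of 5 weak-fall tumours. The B-cell genes Cd79a, Cd79b and Blnk were high in every array of both groups, at 8.58 or above, while the Pax5 probe set read 5.12 to 5.83.

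The mean change of the 5 genes was -4.51 in 2949, -3.24 in 5766, -3.04 in 3769, -2.74 in 9583 and -2.62 in 1570. In the weak-fall lymphomas it was -1.90 in 1467, -1.87 in 5560, -1.80 in 5043, -1.76 in 7050 and -0.38 in 9584. The cuts fell in a continuous series: 1570 at -2.62 was taken and 2581 at -2.61 was not, and 1467 at -1.90 was taken and 3594 at -1.91 was not. Lymphomas 2949 and 9584 stood furthest out, and the rest were closely spaced.

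**Figure D1:**
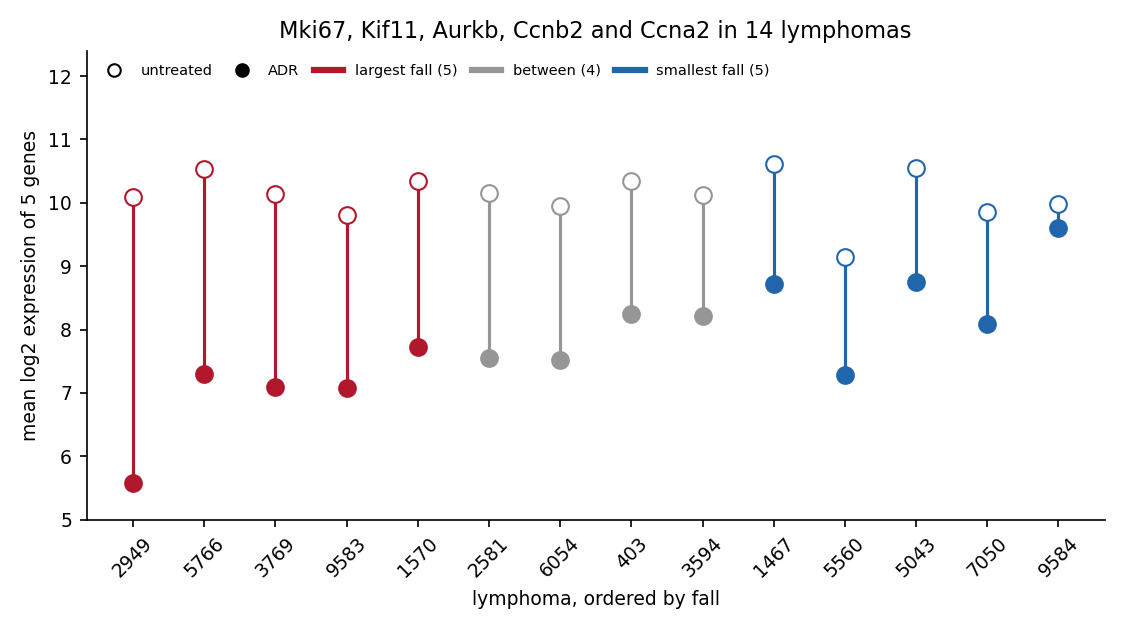
Mean log2 expression of Mki67, Kif11, Aurkb, Ccnb2 and Ccna2 (vertical axis) in the untreated culture (open circles) and the ADR culture (filled circles) of each of 14 lymphomas, ordered from the largest to the smallest fall; colours mark the 2 groups of 5 and the 4 lymphomas between. Untreated means lie between 9.14 and 10.62 throughout, and the ADR means run from 5.58 in 2949 to 9.60 in 9584.

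The groups parted on the ADR side. Untreated, the mean of the 5 genes was 10.18 ± 0.27 (SD, n = 5) in strong-fall and 10.03 ± 0.60 in weak-fall lymphomas, and the ranges overlapped. After ADR it was 6.95 ± 0.81 and 8.49 ± 0.86. Weak-fall 5560 began lowest of all, at 9.14, and ended at 7.28, inside the strong-fall range of 5.58 to 7.72. The spindle motor Kif11 changed by -5.15, -3.76, -3.43, -2.93 and -3.19 in 2949, 5766, 3769, 9583 and 1570, and by -1.83, -1.82, -1.99, -1.81 and -0.52 in 1467, 5560, 5043, 7050 and 9584. That order of lymphomas is kept below wherever 5 values stand together. Mki67, the proliferation antigen, ranged from -4.22 to -1.99 and from -1.90 to -0.16. The mean changes of Aurkb, the kinase of the chromosomal passenger complex, were -3.12 and -1.70, those of cyclin B2 (Ccnb2) -3.22 and -1.39, and those of cyclin A2 (Ccna2) -3.14 and -1.61. None of the 5 overlapped between the groups, which the choice of lymphomas favours.

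Promoter windows of 3 of these 5 genes were read for the CHR letters and for the CCAAT box. RefSeq windows on GRCm38.p6 were held for Mki67, Kif11 and Ccnb2 of the 5; Aurkb and Ccna2 were not matched. The stretches upstream of the first annotated start are chr7:135716451-135716529 (minus strand) for Mki67, chr19:37376232-37376381 (plus strand) for Kif11 and chr9:70421555-70421704 (minus strand) for Ccnb2. They are shown for the CHR letters TTTGAA, held by the Mki67 and Kif11 stretches, and for the CCAAT box, held by each. The CCAAT box is the site read by NF-Y, and both motifs stand in capitals in either orientation.
Mki67: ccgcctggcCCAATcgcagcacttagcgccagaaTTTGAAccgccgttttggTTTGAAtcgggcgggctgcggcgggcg
Kif11: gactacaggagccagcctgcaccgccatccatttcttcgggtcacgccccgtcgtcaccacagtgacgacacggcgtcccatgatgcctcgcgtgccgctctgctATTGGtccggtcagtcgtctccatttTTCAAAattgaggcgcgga
Ccnb2: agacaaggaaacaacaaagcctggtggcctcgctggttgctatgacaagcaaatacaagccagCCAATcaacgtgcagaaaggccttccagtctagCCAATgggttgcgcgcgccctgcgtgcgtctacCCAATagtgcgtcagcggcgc
Mki67 held TTTGAA 116 and 98 bases before its start in this window and Kif11 19 bases before. The Ccnb2 stretch held 3 CCAAT boxes, and its TTTGAA letters lay outside it, 167 bases before and 4 bases after the start. Across windows of 300 bases (250 before to 50 after a start), TTTGAA on either strand was present in 30 of 42 windows of the mitosis list (71.4%), in 5 of 41 of the replication list (12.2%) and in 2426 of 18109 of all genes on the array (13.4%). It was present in 59 of 162 windows (36.4%) of the 170 genes described below that lay lower in every strong-fall lymphoma and in 10 of 63 (15.9%) of the 57 that lay higher. CCAAT on either strand was present in 73.8%, 56.1% and 37.4% of the windows of the mitosis list, the replication list and all genes, and in 61.1% and 44.4% of those of the 170 and the 57. A match of letters is not a measured binding site, and the shares were not tested.

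Outside the 5 genes, mitotic genes as a list had the more negative change in the strong-fall lymphomas. All 49 measured genes of the mitosis list had a more negative mean change there, with a median change of -2.52 against -1.11 in the weak-fall lymphomas and a median difference of -1.40, where that over all genes was 0.02. In 30 of the 49, every strong-fall lymphoma lay below every weak-fall lymphoma. Over all 18193 genes, 0.934% (170) lay apart in this direction and 0.313% (57) in the other. The rule used this contrast, and many of these genes move with the 5 that chose the groups, so the share is a description and nothing is read from it. Leaving out any 1 of the 10 lymphomas, which leaves fewer to be ordered, brought the 57 to between 97 (without 9584) and 156 (without 3769) and the 170 to between 204 and 252. Of the 170, the 5 rule genes apart, 151 of 165 had a mean change in the 4 intermediate lymphomas that lay between the means of the groups. Of the 57, 43 did. The genes were picked for ordering the groups, and the rule placed the 4 lymphomas between them. These counts are thus partly fixed in advance, and nothing is read from them.

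The list mean shows how the lymphomas were spread. The mitosis list changed by -3.31, -2.40, -2.25, -1.86 and -2.02 in the strong-fall lymphomas and by -1.66, -0.77, -1.32, -1.22 and -0.11 in the weak-fall lymphomas. The groups did not overlap, but 9583 and 1467 were close to each other. Without 9584 alone, whose pair is in doubt, the median difference was -1.19 in place of -1.40, and without both ends of the order, 2949 and 9584, it was -0.96. Without 2949, 5766 and 1467, whose arrays matched other lymphomas, it was -1.24.

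Genes of the spindle and the kinetochore were among those with the largest differences. Kif20a, a kinesin of cytokinesis, changed by -4.88, -2.79, -2.89, -2.19 and -2.27 in the strong-fall and by -1.77, -0.58, -1.22, -1.50 and 0.36 in the weak-fall lymphomas. In 9584 it was thus slightly higher after ADR, and in 2949 far below any other lymphoma. Aspm, which organises spindle poles, changed by -3.35 ± 0.90 (SD, n = 5) against -1.18 ± 0.98, and again was higher after ADR in 9584 (0.40). Spag5, a spindle protein, changed by -3.35 ± 0.70 against -1.28 ± 1.01. The spindle checkpoint kinases Ttk (-3.16 ± 1.04 against -1.18 ± 0.71) and Bub1 (-3.18 ± 0.90 against -1.27 ± 0.65), the kinetochore proteins Cenpf, Ska1 and Zwilch (differences of -2.01, -1.87 and -1.91) and the cytokinesis regulator Ect2 (-2.01) followed. Pbk, a mitotic kinase, differed by -2.04, Shcbp1 by -1.90 and the cohesin acetyltransferase Esco2 by -1.90. These 12 genes were picked as the largest differences among genes without overlap and with a mean of at least 6. Their lack of overlap was thus fixed in advance. Leaving out 2949 and 9584 brought the difference of Kif20a from -2.06 to -1.27 and that of Aspm from -2.17 to -1.41.

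**Figure D2:**
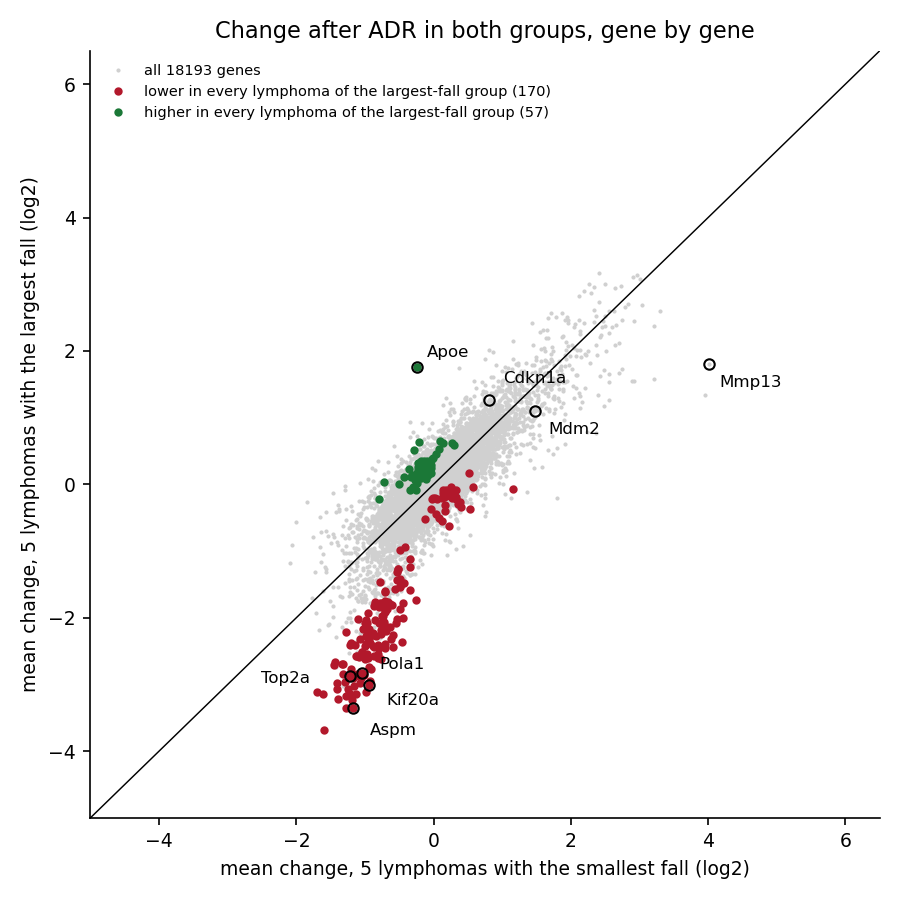
Mean ADR minus untreated change (log2) of every gene in the 5 weak-fall lymphomas (horizontal axis) and the 5 strong-fall lymphomas (vertical axis), with the line of equal change. The 170 genes lower in every strong-fall than in every weak-fall lymphoma (red) lie mostly below -1 on the vertical axis, the 57 higher ones (green) lie near 0 with the exception of Apoe, and Mmp13 is an overlapping gene with a larger rise in the weak-fall lymphomas.

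Replication genes went the same way with less spread among the strong-fall lymphomas. All 44 measured genes had a more negative mean change in that group (median difference -0.93, and -0.76 without 9584), 19 of them without overlap. Over all genes 0.934% lay apart in this direction. As for the mitosis list, the count is a description and nothing is read from it. The list mean changed by -1.57, -1.56, -1.92, -1.46 and -1.58 against -0.76, -0.88, -0.71, -1.08 and -0.05. It was 3769, not 2949, that stood lowest. The mitosis minus replication gap was -1.73 in 2949, -0.34 in 3769 and 0.11 in 5560, so the order of lymphomas differed between the lists. Pola1, the catalytic subunit of DNA polymerase alpha, changed by -3.15, -2.42, -3.38, -2.50 and -2.67 against -0.65, -1.83, -0.77, -1.39 and -0.60. Its difference of -1.78 was the largest of the list, followed by the primase Prim1 (-1.57) and the initiation factor Mcm10 (-1.53), and the licensing factor Cdc6 differed by -1.40; none of these 4 overlapped.

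Genes of homologous recombination and the Fanconi pathway were lower in 26 of 27 cases (median difference -0.77), 7 without overlap. Over all genes 0.934% lay apart in this direction. The counts of this list and of the damage checkpoint list are descriptions only. Rad51ap1, a gene of homologous recombination, changed by -2.57 ± 0.49 against -0.96 ± 0.71. Exo1, an exonuclease that resects DNA ends, ranged from -2.82 to -2.17 in strong-fall lymphomas and from -2.06 to -0.06 in weak-fall ones, a gap of narrow width set by 7050. Rad54b had a difference of -1.65 but overlapped. In the damage checkpoint list Chek1 (-2.17 ± 0.23 against -0.94 ± 0.63), its adaptor Clspn (-2.31 ± 0.60 against -0.62 ± 0.55) and the break-associated ubiquitin ligase Rnf168 (-0.50 ± 0.09 against 0.08 ± 0.38) did not overlap, and the other 18 of 21 genes did, among them H2ax (-1.75 against -1.10). The list's median difference was -0.24.

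Of 19 measured E2F, RB and DREAM genes, 2 did not overlap: the repressive E2f7 (-2.46 ± 0.53 against -0.71 ± 0.96) and the pocket protein p107, Rbl1 (-1.83 ± 0.31 against -0.71 ± 0.31). E2f8 had a similar difference (-1.46) and overlapped through 5560. The activator E2f1 changed by -0.62 against 0.05 and Foxm1, the transcription factor of late cell cycle genes, by -1.12 against -0.62, both with overlap. Among G1 cyclins and CDKs, Skp2, which marks p27 for destruction, and its cofactor Cks1b lay apart, with mean changes of -1.82 against -0.72 and of -1.32 against -0.53. Cdk2 (-1.14 against -0.71) and Ccnd3 (-0.30 against -0.11) overlapped, and for Ccnd2 the means were 0.78 and 0.87. Over all genes 0.934% lay apart in this direction, and so few genes in lists this short are not read as a result. The median differences of these lists were -0.18 and -0.19, and leaving out 1 lymphoma gave -0.32 to -0.08 and -0.32 to -0.05.

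In the chromatin and lamina list 3 of 21 genes lay apart, where 0.934% of all genes did in this direction. So small a count is not read as a result. The histone chaperone Asf1b changed by -2.06 ± 0.35 against -0.72 ± 0.51 and Hmgb2 by -2.31 ± 0.18 against -1.08 ± 0.77, without overlap. Lmnb1, the lamin whose loss is used as a senescence marker, changed by -0.23, -1.71, -2.93, -0.77 and -2.54 against -1.10, -2.27, -0.31, -1.59 and -0.65. Its smallest change in the strong group was thus in 2949, where the mitotic genes had their most negative changes. Top2a, the topoisomerase that ADR acts on and itself a G2/M gene, changed by -3.79, -2.88, -2.96, -2.45 and -2.32 against -1.63, -1.10, -1.47, -1.66 and -0.23. It was the only 1 of 20 drug-handling genes without overlap, and 1 gene in so short a list is not read as a result either. The drug efflux pump gene Abcb1b changed by -0.95 to 2.25 against -0.19 to 2.03, and its partner Abcb1a read 2.71 to 4.51, near the low end of the scale. The median differences were -0.18 for the chromatin and lamina list (-0.33 to -0.12 leaving out 1 lymphoma) and -0.08 for drug handling (-0.13 to -0.05).

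Over both groups the p53 targets did not follow the order of the fall of the rule genes. Within the strong-fall group they and Cdkn1a did, with a lower change where that fall was larger. The mean change of 32 p53 targets was -0.42, 0.26, 0.91, 1.08 and 1.43 in the strong-fall and 0.53, 0.58, 0.60, 0.07 and 0.71 in the weak-fall lymphomas. The strong group thus held both the lowest and the highest value. That 0 of the 32 genes lay apart is near the share over all genes (0.934% and 0.313%). The median difference of 0.15 changed sign in 5 alternatives: leaving out 1 lymphoma gave -0.07 (without 1570) to 0.42 (without 2949), and leaving out 2949, 5766 and 1467 gave 0.66. Cdkn1a changed by 0.03, 0.90, 1.07, 1.96 and 2.39 against 0.85, 1.15, 0.63, 0.23 and 1.17. In 2949 it was already at 12.28 untreated and stayed at 12.31, whereas in 1570 it went from 9.81 to 12.20. After ADR all 10 lymphomas stood between 11.14 and 12.31. Mdm2, the ubiquitin ligase for p53 and its target, changed by -0.50, 0.94, 2.16, 0.89 and 1.99 against 0.83, 1.66, 1.46, 0.76 and 2.69. Its largest change was in 9584, the lymphoma with the smallest mitotic change, and it was lower after ADR only in 2949.

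**Figure D3:**
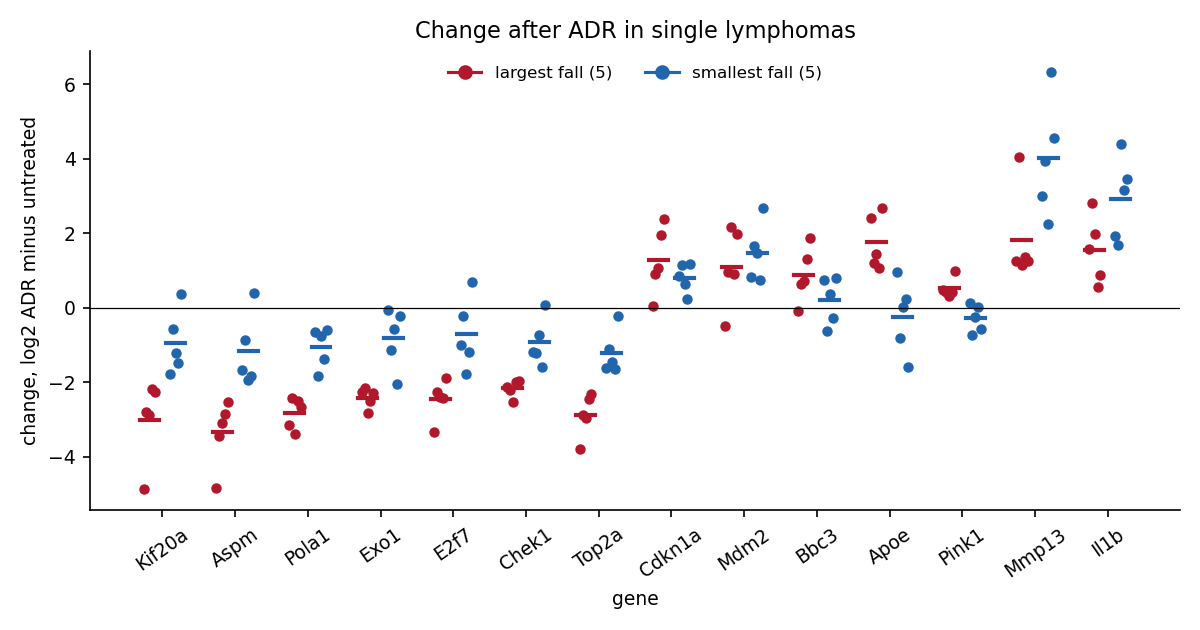
ADR minus untreated change (log2, vertical axis) of 14 genes in the 5 strong-fall (red) and 5 weak-fall (blue) lymphomas, 1 point per lymphoma with a bar at the mean. The cell cycle genes from Kif20a to Top2a separate the groups, Cdkn1a, Mdm2 and Bbc3 overlap, and Apoe and Pink1 lie higher in every strong-fall lymphoma.

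CDK inhibitors and survival genes overlapped throughout. Cdkn2b, encoding p15, had mean changes of 0.71 ± 0.98 and -0.08 ± 0.57, with the highest values in 9583 (2.11) and 1570 (1.32). Cdkn2c, encoding p18, changed by -2.39 in 2949 and 1.06 in 5560. Cdkn2d, encoding p19Ink4d, had mean changes of -1.26 ± 0.56 and -0.71 ± 0.74. The 7 genes of the list had a median difference of 0.22. Cdkn2a, the locus of p16 and p19Arf, read 3.16 to 4.59 in all 20 arrays, near the low end of the scale. In the BCL2 family, 0 of 14 genes lay apart (median difference 0.12, and 0.04 without 5560 to 0.19 without 1467). For so short a list that is near the share over all genes (0.934% and 0.313%). The pro-apoptotic Bbc3 (Puma) changed by 0.88 ± 0.74 against 0.20 ± 0.63 and Bmf by 0.06 ± 0.70 against -0.88 ± 0.65. Bcl2, which the retrovirus supplies, changed by -0.93 ± 0.41 against -0.63 ± 0.55, and Myc by -0.36 ± 0.49 against -0.87 ± 1.01.

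The 57 genes that lay higher in every strong-fall lymphoma (0.313% of all) had a median difference of 0.40. Apoe had the largest difference among those with a mean of 6 or more. Their number depended on the lymphomas used and is not read as a result. Without 2949, 5766 and 1467, 553 genes lay higher and 518 lower. Of the 57 genes without overlap, 36 were higher after ADR in 5 of 5 strong-fall lymphomas, and 10 of these were lower in 5 of 5 weak-fall lymphomas. Apoe, a lipid carrier made by many cell types and abundantly by macrophages, changed by 2.40, 1.20, 1.45, 1.07 and 2.68 against 0.95, -0.82, 0.01, 0.22 and -1.60. Untreated levels overlapped (5.32 to 7.32 against 4.47 to 7.74), and ADR levels did not (6.52 to 8.77 against 5.27 to 6.14). The difference of change was 2.01, and 1.51 without 2949 and 9584. The mean change of 22 macrophage markers over the same lymphomas was 0.40 to 1.94 against 1.02 to 2.05, and its part in the Apoe values was not tested.

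The other 11 genes named on this side differed by 0.40 to 0.85. Klhl21, a substrate adaptor of a Cul3 ubiquitin ligase, changed by 0.63 ± 0.21 against -0.22 ± 0.34, and Pink1, the kinase that marks damaged mitochondria, by 0.52 ± 0.27 against -0.28 ± 0.37. The autophagy gene Atg16l1 differed by 0.43, the retinol dehydrogenase gene Rdh13 by 0.44, and the vesicle traffic genes Vps54 and Ergic1 by 0.49 and 0.48. Fam219b (0.45), Tmem234 (0.41), Nt5dc3 (0.40) and 2300009A05Rik (0.59) were of the same size. In 2410006H16Rik (0.75) the means were 0.03 and -0.72, so the difference lay in a lower level in the weak-fall lymphomas. Only 25 of the 57 genes had a mean of 6 or more over the arrays, against 139 of the 170 on the other side, and 56 of the 57 belonged to none of the 30 gene lists.

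Counts of genes with a higher mean after ADR were close, and counts of genes with a lower mean were not. The rule chose the groups by the size of a fall, so the latter is partly fixed in advance and nothing is read from it. A mean 1 or more higher on the log2 scale (2-fold) was seen for 502 genes in the strong-fall and 496 in the weak-fall lymphomas, with 356 in common, 70.9% and 71.8% of the 2 sets. A mean 1 or more lower was seen for 440 and 220 genes, with 146 in common, 33.2% and 66.4%. Single lymphomas varied more than that: 405 to 1013 genes (median 685) were lower by 1 or more in a strong-fall lymphoma and 301 to 1072 (median 551) in a weak-fall one.

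Of 40 measured genes of the senescence-associated secretory (SASP) list, 27 had a lower mean change in the strong-fall lymphomas, and all 40 overlapped. The overlap of all is near the share over all genes, of which 0.934% and 0.313% lay apart. The collagenase Mmp13 changed by 1.26, 4.04, 1.14, 1.37 and 1.24 against 3.00, 3.93, 2.24, 6.33 and 4.56, and only 5766 kept the groups from lying apart. Il1b, encoding interleukin 1 beta, changed by 1.56 ± 0.89 against 2.92 ± 1.12, and Csf3, the granulocyte colony factor, by 0.25 ± 0.29 against 1.57 ± 1.08. Il6 had a smaller difference and a wider spread (1.83 ± 0.83 against 2.27 ± 1.92, lower after ADR in 1467 at -0.70). The median difference over the list was -0.24. It was -0.03 without 5560, -0.07 without 2949, -0.43 without 3769 and -0.05 without 2949 and 9584. Feeder fibroblast markers changed by 0.45 to 2.76 against -0.13 to 4.14, and both they and macrophages can make these factors; their part was not tested.

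**Figure D4:**
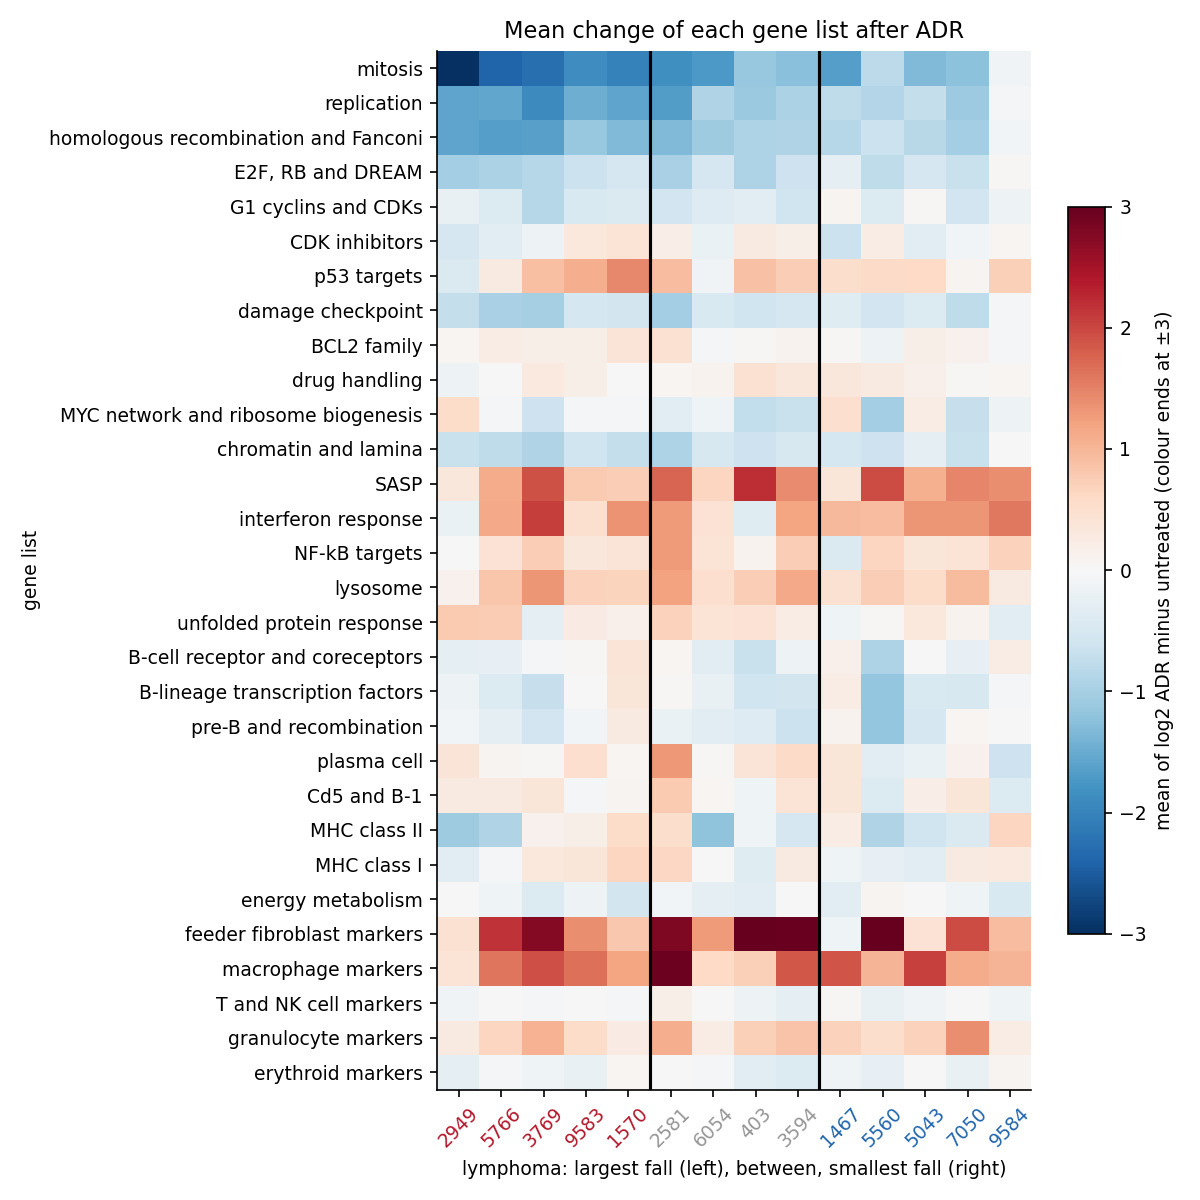
Mean ADR minus untreated change of 30 gene lists (rows) in 14 lymphomas (columns, ordered by fall, with lines around the 4 intermediate ones); blue is lower and red higher after ADR, on a log2 colour scale that ends at ±3. The mitosis and replication rows darken to the left, whereas the SASP, interferon and fibroblast rows vary without that order. The p53 target row rises across the strong-fall lymphomas and has no such order over all 14.

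The interferon, lysosome and unfolded protein response lists held no gene apart, which is near the share over all genes (0.934% and 0.313%). The interferon list changed by -0.21, 1.14, 2.07, 0.49 and 1.36 against 0.96, 0.93, 1.33, 1.33 and 1.58, so that 2949 was the only lymphoma of the 10 with a lower mean. Its median difference of -0.23 turned to 0.13 without 2949 and to 0.24 without 2949 and 9584. Lysosomal genes had mean changes above 0 in all 10 lymphomas, with a median difference of 0.11 that was -0.02 without 3769 and 0.28 without 2949. Hexa, a lysosomal hexosaminidase subunit, changed by 0.96 ± 0.75 against 0.39 ± 0.19, the protease gene Ctsl by 1.42 ± 1.01 against 1.07 ± 0.83, and Glb1, the beta-galactosidase behind the senescence stain, changed by 0.44 ± 0.26 against 0.10 ± 0.40. Unfolded protein response genes had a median difference of 0.31, which was 0.17 without 2949, 0.51 without 3769 and -0.02 without 2949, 5766 and 1467, and the degradation adaptor Sel1l changed by 0.71 ± 0.82 against -0.35 ± 0.75. Among B-lineage genes Ikzf3 (-0.26 ± 1.05 against -1.84 ± 1.71) and Myb (-0.49 ± 1.29 against -1.66 ± 2.66) had wide spreads, with the lowest values in 5560, at -4.40 and -6.06. That lymphoma also had the largest change of feeder markers among the 10 (4.14), and the part of feeder RNA in its lower B-lineage values was not tested. Ctla4, listed here with B-1 cell genes, changed by -0.56 ± 0.57 against -2.0 ± 0.99, and Arpp21 was the only pre-B gene to lie apart, at a level near background (0.10 against -0.43). The median differences were 0.10 for B-cell receptor genes, 0.17 for B-lineage transcription factors, 0.29 for Cd5 and B-1 genes and 0.04 for pre-B genes. Leaving out 1 lymphoma moved them widely, to between -0.0018 (without 5560) and 0.24 for the first, 0.02 (without 5560) and 0.38 for the second, 0.06 (without 5560) and 0.37 for the third and -0.02 and 0.17 for the last.

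Lists of growth, antigen presentation and secretion held no gene apart either, again near the share over all genes (0.934% and 0.313%). Of 34 genes of the MYC network and ribosome biogenesis, 28 had a higher mean change in the strong-fall lymphomas (median difference 0.24). That value was near 0 without 5560 (0.0031) and 0.06 without 2949, 0.13 without 7050 and up to 0.41 without 1467. Srm, a polyamine synthesis enzyme that MYC drives, changed by 0.04 ± 0.74 against -0.50 ± 1.09, and the MYC antagonist Mxd4 by 1.11 ± 0.74 against 0.57 ± 0.87. Of 29 genes of the energy metabolism list, 21 had a lower mean change (median difference -0.10, and -0.18 to -0.03 leaving out 1 lymphoma). The list includes Pigq, which was matched to the written name Gpi1 and is not a gene of energy metabolism. The hexokinase gene Hk2 changed by -0.13 ± 0.34 against 0.23 ± 0.55. Among MHC class I genes 11 of 12 had a higher mean change (median difference 0.26, and 0.11 to 0.35 leaving out 1 lymphoma), as in the peptide transporter gene Tap1 (0.28 ± 0.85 against -0.28 ± 0.61). For 10 MHC class II genes the median difference of -0.10 changed sign in 6 of 20 alternatives (0.14 without 2949, -0.16 without 1570), and H2-Ob, a subunit of a peptide-loading regulator, changed by -0.70 against -1.57. For 21 NF-kB targets it was 0.05 (-0.05 to 0.10), and the adaptor gene Traf1 changed by 1.55 ± 0.45 against 0.93 ± 1.04. Among plasma cell genes 12 of 14 had a higher mean change (median difference 0.27, and 0.11 to 0.50 leaving out 1 lymphoma). Mzb1, an endoplasmic reticulum chaperone of B cells, changed by 0.37, 0.16, -0.66, 0.64 and 0.56 against 0.16, -3.04, 0.09, -0.85 and -0.59, with 5560 lowest again. The transcription factor gene Irf4 changed by 0.35 ± 0.87 against -0.44 ± 0.47 and Derl3, of the degradation of misfolded proteins, by -0.21 ± 1.35 against -0.94 ± 0.48. Tnfrsf13c, the BAFF receptor gene from the B-cell receptor list, changed by -0.79 ± 0.85 against -1.76 ± 1.64. All of these genes overlapped between the groups. Across all 30 lists, 15 kept the sign of their median difference in all 20 alternatives, which says nothing of its size.

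Changes of the markers of other cells overlapped between the groups. Over all genes 0.934% and 0.313% lay apart, so 0 in lists of this size is near that share and is not read as a result. Fibroblast markers had median changes of 1.45 and 1.48, with 0 of 24 genes apart, macrophage markers 1.35 and 1.64, with 0 of 22 apart, and granulocyte markers 0.06 and 0.09. Csf1r, the receptor for the macrophage growth factor, changed by 2.21 ± 1.18 against 1.88 ± 0.96. The granulocyte genes Mmp8 and S100a8 changed by 1.58 ± 1.49 against 3.21 ± 1.77 and by 1.55 ± 1.09 against 2.89 ± 2.42, and S100a8 reached 7.07 in 7050. The erythroid list, of 6 measured genes, had a median difference of 0.05, and its brightest member, the transferrin receptor gene Tfrc, changed by -0.75 against -0.36. T and NK cell markers stayed at means of 4.54 to 5.11, and Cd3e read 5.31 to 5.80 in every array. The fibroblast gene Col1a2 reached 10.76 in 5766 and 11.66 in 5560 after ADR, 1 lymphoma from each group.

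Untreated cultures were then compared, the side on which a test was possible. With limma, 0.0% (0 of 18193) of genes differed between strong-fall and weak-fall lymphomas at an adjusted p of 0.05, the smallest adjusted p being 1.00. At an unadjusted limma p of 0.05, 375 genes (2.06%) passed, 214 higher and 161 lower in the strong-fall lymphomas. That share is below the 0.05 that would pass on average with no difference at all. With 5 tumours a group, the median standard error of a difference was 0.16. The single genes below differ by several of their own standard errors, and none passes adjustment over all 18193 genes. Over all genes, 0.253% (46) lay higher in every strong-fall tumour and 0.0934% (17) lower before treatment, and after it 0.511% (93) and 0.55% (100).

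Cell cycle genes were slightly higher untreated in the strong-fall lymphomas, by a median of 0.16 for mitosis (43 of 49 genes higher) and 0.27 for replication (41 of 44), and none of them passed the test. Without 5560 the mitosis value was 0.01 and without 5766 it was 0.06, against 0.31 without 1467 and 0.27 without 9583. The replication value ran from 0.17 (without 5560) to 0.44 (without 7050). After ADR the median differences were -1.23 and -0.64. These untreated values are not independent of the rule. The mitosis list stood at 8.88 to 9.69 in strong-fall and 8.51 to 9.67 in weak-fall lymphomas before treatment. In the limma fit, Cenpp, a centromere protein, had the smallest unadjusted p of the cell cycle genes named (0.58, SE 0.18, adjusted p = 1.00), at 7.36 to 8.19 against 7.01 to 7.63.

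Among genes with a mean of 6 or more, those with the smallest p on the higher side were Zfp763 and Ercc6l2. Zfp763, a zinc finger gene, stood at 6.84, 7.02, 6.75, 6.53 and 6.42 against 5.35, 5.42, 6.06, 6.38 and 5.95. The groups did not overlap, and the difference was 0.88 (limma adjusted p = 1.00). Ercc6l2, a helicase gene, differed by 0.40 and Grhpr, a glyoxylate reductase, by 0.73. On the lower side Tbc1d10b, a GTPase activator, stood at 8.15, 8.42, 8.33, 8.38 and 8.08 against 9.09, 8.71, 8.77, 8.56 and 8.93. Its difference was -0.54 (limma adjusted p = 1.00), again without overlap. Rhog, a small GTPase, differed by -0.62, the protease inhibitor Cstb by -0.80, the syndecan Sdc1 by -0.92 and App, the amyloid precursor, by -1.73.

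The other genes with small p were of like size. Rsrc2 stood at 9.80 to 10.07 against 9.56 to 9.72 and did not overlap, but its difference of 0.30 was -0.05 with the probe set of largest variance. Hesx1, a homeobox gene, differed by 0.51, Bcdin3d, an RNA methyltransferase, by 0.50, 4932431P20Rik by 0.48, Fam76b by 0.40 and Il10ra, the interleukin 10 receptor, by 0.40. On the lower side Ttyh2 stood at 4.88 to 5.84 against 5.91 to 6.79 and Fcho2, a factor of clathrin-mediated endocytosis, at 6.86 to 7.43 against 7.47 to 7.70, both without overlap. Znfx1, an interferon-induced antiviral gene, differed by -0.73 and 1810013L24Rik by -0.45. None of them passed in limma (adjusted p = 1.00 each).

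**Figure D5:**
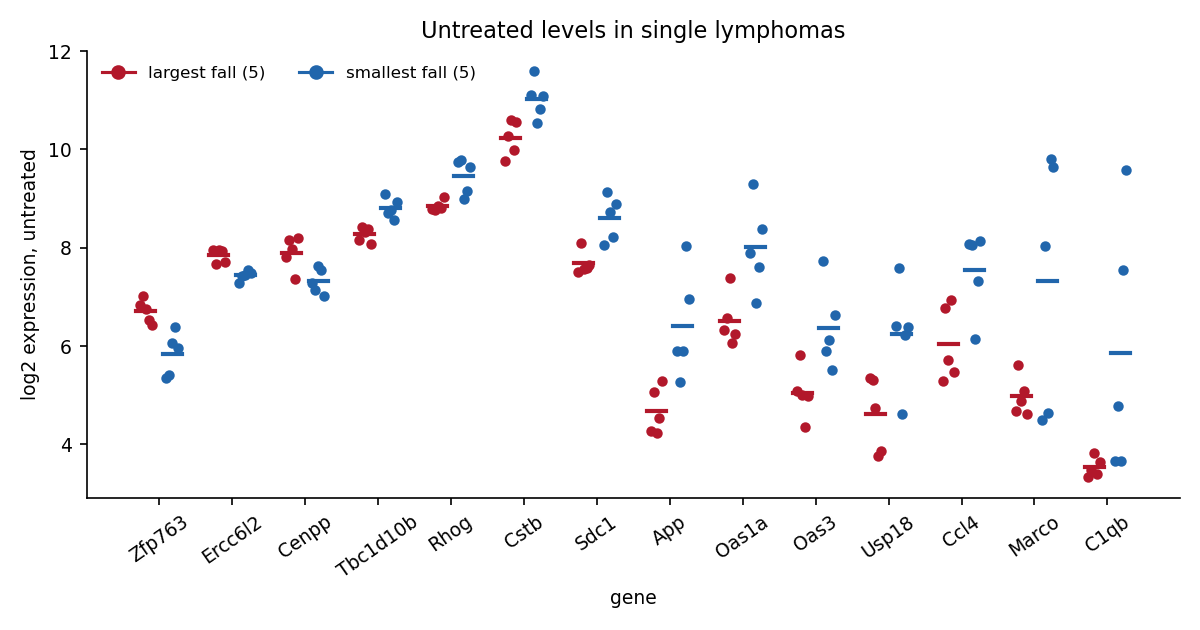
Untreated log2 expression (vertical axis) of 14 genes in the 5 strong-fall (red) and 5 weak-fall (blue) lymphomas, 1 point per lymphoma with a bar at the mean. Zfp763, Ercc6l2 and Tbc1d10b do not overlap, the interferon genes Oas1a, Oas3 and Usp18 lie mostly higher in weak-fall lymphomas, and Marco and C1qb are high in only some of them; no gene passed the adjusted test.

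Interferon-response genes had mostly lower means in the untreated strong-fall lymphomas, and none passed the test. Of 33 measured genes 30 had a lower mean there, and the median difference was -0.50 where that of all genes was 0.02. In the limma fit 8 had an unadjusted p under 0.05, as did 2.06% of all genes, and 0 passed after adjustment. The 33 genes were read in the same cultures and are not independent. Oas1a, a sensor of double-stranded RNA, stood at 6.32, 6.58, 7.38, 6.06 and 6.25 against 7.89, 9.30, 6.87, 7.62 and 8.38. Its difference was -1.50 (limma adjusted p = 1.00), with overlap through 5043. Usp18, which restrains interferon signalling, differed by -1.63 and Oas3 by -1.33. The list mean was 6.47, 6.58, 6.72, 6.41 and 6.35 against 7.0, 7.75, 6.44, 6.69 and 7.80. Over all alternatives the median difference stayed between -0.65 and -0.30.

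Macrophage markers varied alongside. They had a lower untreated mean in the strong-fall lymphomas in 20 of 22 genes (median difference -0.67). Leaving out 1 lymphoma gave -0.25 (without 5560) to -1.08 (without 5043), and the value was 0.01 without 1570 and 5560 and -1.59 without 2949, 5766 and 1467. The list mean was 6.43, 6.75, 7.10, 6.17 and 5.41 against 5.44, 8.52, 5.46, 7.74 and 8.61. The weak-fall group was thus split, with 5560, 7050 and 9584 high and 1467 and 5043 low. Marco, a scavenger receptor, was at 4.62 to 5.61 in all strong-fall lymphomas and at 8.04, 9.80 and 9.64 in 5560, 7050 and 9584, and C1qb, a complement subunit, followed in 7050 (7.54) and 9584 (9.59). The chemokines Ccl4 (-1.50), Ccl3 (-1.10) and Ccl2 (-0.89), which myeloid and activated B cells release, had lower means as well, as did Ebi3 (-1.45). None passed in limma (adjusted p = 1.00 each). In 5560 and 9584 the interferon list was high as well (7.75 and 7.80). Lymphoma 1467 had interferon genes above the strong-fall range (7.0) with macrophage markers near the lowest value (5.44). In 7050, with high macrophage markers, and in 5043, with low ones, the interferon list lay within the strong-fall range (6.69 and 6.44). The part of myeloid RNA in the interferon and chemokine differences was not tested.

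High Cd5 and high Xist did not align with the groups. Cd5, a surface antigen of B-1 cells, was high untreated in 2949 (10.30), 5766 (10.46), 5043 (10.57) and 7050 (9.81), 2 of each group, and at 7.19 or below in the other 6. Xist, the RNA that coats the silenced X of females, was above 10 in 4 of 5 strong-fall and 3 of 5 weak-fall lymphomas. Untreated, the Cd5 and B-1 list had 9 genes lower and 2 higher in the strong-fall lymphomas (median difference -0.34). The plasma cell list had 9 lower and 5 higher (-0.24). Their list means overlapped (6.32 to 7.17 against 6.58 to 7.12, and 7.95 to 8.50 against 7.63 to 9.52), and no gene of either passed the test.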

How the data were processed

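RNA of 14 lymphomas, untreated and after ADR, was hybridised to 28 Affymetrix arrays. The deposited values are log2 expression levels that the authors made with RMA and Partek 6.5, per the submitters' processing notes; RMA corrects background, normalizes all arrays together and summarises each probe set, so low genes have compressed changes. The build of the array's annotation is not given in the sources used here. Of 45101 probe sets, 34945 had 1 gene in the supplied annotation, 932 several, 9160 none and 64 were controls; only the first kind was used. Where a gene had several probe sets, the brightest on average (28 arrays) stood for it, and 18193 genes remained.

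Groups came from the mean ADR minus untreated change of the 5 genes. The members, the 30 lists (682 of 735 genes measured) and the genes named were chosen with earlier results of these data known. A difference is the strong-fall mean minus the weak-fall mean. Untreated levels were fitted with limma 3.58.1 in R 4.3.3 (lmFit, eBayes, Benjamini-Hochberg over all genes, threshold 0.05), tested on simulated data first. Groups were called apart where every lymphoma of one lay above every lymphoma of the other. The naming rule took the 12 largest differences of change in each direction among such genes, the 10 smallest limma p in each direction, both with a mean of at least 6, up to 3 members per list for change and for untreated p, and 22 set genes, of which 20 were measured. Of the 219 genes this gives, the text names the 20 with small untreated p, the 24 with large differences of change, the set genes and examples from each list. Promoter windows are from RefSeq (GRCm38.p6). For arrays the number of lymphomas limits the precision. Alternatives were another probe set per gene, a filter on low values, 4 or 7 lymphomas a group, each lymphoma left out, median centring, another rule score, covariates, eBayes with trend and robust options, the score as a number, the earlier series only, and 3 sets of doubted lymphomas left out, the last chosen after seeing the data. Figures were drawn with matplotlib 3.10.9.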

Additional observations from a re-analysis of the deposited data

Results flagged for a closer look

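In 31 of 330 groups of 5 values examined, the highest or lowest lymphoma stood apart from the other 4 by more than Dixon's critical value. Chance gives about 1 in 20 for groups drawn at random, but these groups are the ends of a ranking. For the rule score, the rule genes and genes that move with them, the rule itself favours an outlying end. The count is therefore not compared with that rate. The genes share lymphomas and are not independent, and no explanation was tested.

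Lymphoma 2949 was the lowest strong-fall lymphoma for Ccnb2 (-4.65), Spag5 (-4.59), Kif20a (-4.88), Pbk (-4.79), Ttk (-4.99), Bub1 (-4.75), Esco2 (-4.90) and Rad51ap1 (-3.42), and the highest for Rdh13 (0.87). Lymphoma 9584 was the highest weak-fall lymphoma for the mean change of the 5 rule genes (-0.38), for Mki67 (-0.16), Kif11 (-0.52), Aurkb (-0.57), Ccna2 (-0.46), Pbk (-0.28), Shcbp1 (0.033), Rad51ap1 (0.29), Clspn (0.36) and Asf1b (0.17).

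The other values were spread over 7 lymphomas. In 3769 the replication list (-1.92) and Asf1b (-2.65) were lowest and Sdc1 (3.60) was highest, and Derl3 was lowest (-2.57). Pink1 was highest in 1570 (0.99), whose ADR array had the high 3' minus 5' signal. Mmp13 was highest in 5766 (4.04) and C1qb in 9583 (4.21). In the weak group the p53 target list was lowest in 7050 (0.074), Nqo1, an oxidoreductase, was highest in 5560 (3.44), S100a8 was highest in 7050 (7.07), and in 1467 Ebi3 was lowest (-1.55) and Derl3 highest (-0.11).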

How the results depend on the processing

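No untreated call was made by limma under any of 24 alternatives, with unadjusted p under 0.05 for 125 to 1112 genes and a smallest adjusted p of 0.26 (without 2949, 5766 and 1467) or 0.40 (score as a number over 14 lymphomas), and 0.9986 or above in the rest. The mitosis, replication and recombination lists kept a negative median difference of change in all 20 alternatives, 15 of 30 lists kept their sign in all, and 103 of 132 single genes did.

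Counts of genes apart depend on how many lymphomas must be ordered, since fewer give fewer conditions. Higher and lower in the strong group, they were 240 and 297 with 4 against 4, 12 and 40 with 7 against 7, 373 and 457 in the earlier series, 186 and 282 without 2949 and 9584, 269 and 314 without 1570 and 5560, and 553 and 518 without 2949, 5766 and 1467. Leaving out 1 lymphoma gave 97 to 156 higher genes. The higher count was 25 with a mean of at least 6, fewer genes being tested, and 94 with the score over all probe sets; the cause of the latter was not tested.

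Median differences moved for T and NK markers (0.12 with a mean of at least 6, 0.092 with the score over all probe sets, -0.023 without 1570 and 5560, -0.042 without 2949, 5766 and 1467, and -0.031 without 3769, -0.022 without 5560 and up to 0.048 leaving out 1 other lymphoma), granulocyte markers (-1.35) and erythroid markers (-0.39, both with a mean of at least 6, fewer genes being tested), plasma cell genes (-0.052 in the earlier series) and E2F, RB and DREAM genes (-0.43 without 1570 and 5560). The untreated difference of Rsrc2 reversed to -0.050 with the probe set of largest variance. The cause was not tested. No paired analysis was possible because each lymphoma lies in 1 group only. Genes near background limit what small differences show.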
